A study of Mus musculus with 12 samples.

Results

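The genes described here are PD-1 and 9 other genes of T cell inhibition: Pdcd1 (PD-1), Cd274 (PD-L1), Havcr2 (TIM-3), Lag3, Tigit, Ctla4, Cd160, Ceacam1, Cd200r1 and Cd101. They were chosen by name from a table of 56941 genes, in which all 10 were found as 1 row each and all 10 passed the filter on low counts that left 18657 genes. Cd274 encodes a ligand and was listed with the receptors because it was named with them. RNA had been sequenced in bulk from CD8+ T cells of tumours formed in wild type C57BL/6J mice by Panc02, a pancreatic cancer line of the mouse. Cells were sorted as DAPI-negative, CD45.2+ and CD8+, and then split by asialo-GM1 (asGM1), a surface glycosphingolipid. The 4 groups of 3 libraries were asGM1-positive cells under anti-PD-1 antibody, asGM1-negative cells under anti-PD-1, asGM1-positive cells under isotype control antibody and asGM1-negative cells under isotype control. No T cell receptor or CD3 gate was named. Age, dose, the day of tumour collection and whether replicates came from separate mice are not given in the sources used here, so the spread behind the p-values may be technical in part. Libraries are numbered 1 to 3 in each group as labelled, and a pair is the asGM1-positive and the asGM1-negative library with the same number and treatment.

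Inhibitory receptors appear on T cells after antigen stimulation and dampen signals from the T cell receptor and from CD28. PD-1 does so by recruiting phosphatases to its cytoplasmic tail when it meets its ligands, PD-L1 and PD-L2. In tumours and chronic infection, T cells that meet antigen for a long time carry several of these receptors at once, a state called exhaustion, and antibodies that block PD-1 are used to restore part of their function. The antibody acts on the protein, whereas the values here are RNA.

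Promoter sequences are shown for 4 of the genes because these had the largest treatment changes in size, averaged over the populations: Ceacam1, Ctla4 and Havcr2 were higher under anti-PD-1 and Cd101 was lower. RefSeq windows of build GRCm38.p6, running from 250 bases before to 50 after the start of the gene, were at hand for 8 of the 10 genes. The counts themselves were made on build mm39, so these windows locate the sequence on GRCm38.p6 only. Capitals mark matches, on either strand, to one of 6 motifs: AP-1 (TGANTCA), NR4A (AAAGGTCA), IRF (GAAANNGAA), RUNX (TGTGGT), T-box (AGGTGTGA) and TCF/LEF (TTCAAAG).
Havcr2 (chr11:46454681-46454980, plus strand, printed along the gene): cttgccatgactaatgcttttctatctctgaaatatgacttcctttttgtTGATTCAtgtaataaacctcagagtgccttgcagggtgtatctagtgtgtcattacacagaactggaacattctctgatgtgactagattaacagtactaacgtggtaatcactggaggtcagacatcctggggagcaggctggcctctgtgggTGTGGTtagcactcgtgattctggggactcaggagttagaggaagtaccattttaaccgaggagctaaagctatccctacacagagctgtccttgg
Ctla4 (chr1:60908775-60909074, plus strand, printed along the gene): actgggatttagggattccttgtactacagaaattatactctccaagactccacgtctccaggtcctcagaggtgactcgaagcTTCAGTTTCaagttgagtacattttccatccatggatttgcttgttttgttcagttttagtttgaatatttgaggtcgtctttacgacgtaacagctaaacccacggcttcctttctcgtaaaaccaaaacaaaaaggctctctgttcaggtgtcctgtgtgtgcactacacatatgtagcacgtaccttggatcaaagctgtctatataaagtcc
Ceacam1 (chr7:25477576-25477875, minus strand, printed along the gene): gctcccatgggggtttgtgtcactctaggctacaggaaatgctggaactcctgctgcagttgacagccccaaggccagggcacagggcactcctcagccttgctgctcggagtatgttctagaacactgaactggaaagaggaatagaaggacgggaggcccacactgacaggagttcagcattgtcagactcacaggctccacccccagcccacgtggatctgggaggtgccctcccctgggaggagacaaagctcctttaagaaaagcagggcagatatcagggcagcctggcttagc
Cd101 (chr3:101029504-101029803, minus strand, printed along the gene): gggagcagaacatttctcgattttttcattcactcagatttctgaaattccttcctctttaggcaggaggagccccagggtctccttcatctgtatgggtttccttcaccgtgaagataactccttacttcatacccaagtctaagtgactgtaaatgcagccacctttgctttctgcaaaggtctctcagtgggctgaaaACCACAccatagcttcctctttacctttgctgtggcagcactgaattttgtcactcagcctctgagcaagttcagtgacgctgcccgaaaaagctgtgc
In Havcr2 the capitals are an AP-1 match that starts 200 bases before the start site and a RUNX match that starts 46 bases before it, on the strand of the gene. Ctla4 held an IRF match 166 bases and Cd101 a RUNX match 49 bases before the start, both on the other strand. The Ceacam1 window held none of the 6, nor did that of Pdcd1. Among 32841 windows of this length, AP-1 was present in 7.81%, RUNX in 16.8%, IRF in 8.56%, TCF/LEF in 5.13%, NR4A in 1.51% and T-box in 1.28%. A match is a description of letters and not evidence of a bound site.

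Libraries held 58.1 to 73.2 M counts, at which 3 counts amount to 0.0406 to 0.0524 CPM (counts scaled to a total of 1 M per library, with TMM factors of 0.970 to 1.04). This limit covers counting error only. Cd8a averaged 1721 ± 136 CPM in anti-PD-1 and 2403 ± 188 CPM in isotype asGM1-positive cells, and 1842 ± 113 CPM in anti-PD-1 and 2111 ± 60.5 CPM in isotype asGM1-negative cells (SD, n = 3 each). The summed level of 6 T cell markers ran from 7676 to 8989 CPM under anti-PD-1 and from 9892 to 11317 CPM under isotype in asGM1-positive cells, and in asGM1-negative cells from 8378 to 9742 CPM under anti-PD-1 and from 9207 to 9907 CPM under isotype. Markers of other cells were present and moved with the sort, the treatment or both. The summed level of 11 macrophage and monocyte markers was 183 to 318 CPM in asGM1-positive and 78.8 to 118 CPM in asGM1-negative libraries under anti-PD-1, and under isotype 212 to 305 CPM in asGM1-positive and 72.3 to 84.5 CPM in asGM1-negative libraries. That of 8 plasmacytoid dendritic cell markers was 85.5 to 91.1 CPM in asGM1-positive and 154 to 193 CPM in asGM1-negative libraries under anti-PD-1, and under isotype 87.8 to 158 CPM in asGM1-positive and 248 to 392 CPM in asGM1-negative libraries, with Siglech at or near 0 in asGM1-positive libraries. Foxp3, which marks regulatory T cells, averaged 5.63 ± 1.86 CPM in asGM1-positive and 39.4 ± 18.4 CPM in asGM1-negative cells under anti-PD-1, and under isotype 3.22 ± 1.22 CPM in asGM1-positive and 29.0 ± 12.7 CPM in asGM1-negative cells (SD, n = 3 each). The NK cell receptor gene Ncr1 had means from 0.115 to 0.673 CPM. The 3 neutrophil markers, S100a8, S100a9 and Csf3r, all fell under anti-PD-1 averaged over the populations. Their summed level was 0.504 to 2.49 CPM in anti-PD-1 and 3.37 to 7.29 CPM in isotype asGM1-positive libraries, and 0.260 to 0.437 CPM in anti-PD-1 and 3.25 to 3.53 CPM in isotype asGM1-negative libraries. Of the 4 tested NK cell markers, Klrb1c and Fcer1g fell in the same comparison, and their sums stand beside Cd160. Hspa1a, an inducible heat shock gene, ran from 22.5 to 151 CPM under anti-PD-1, with both libraries numbered 2 highest, and from 188 to 440.3 CPM under isotype. The part that other cells and heat shock RNA had in the values below was not tested. Some fits below leave out anti-PD-1 pair 2. They do not test this part, because Hspa1a was lower in every anti-PD-1 library than in any isotype library. In bulk RNA, fewer cells that express a gene and less RNA per cell cannot be told apart.

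Pdcd1 gave the most abundant RNA of the 10 per length of gene. Per kb of exon (GENCODE M21 gene models), its level was 1189.6 ± 37.9 CPM per kb in anti-PD-1 asGM1-positive cells, 1192 ± 60.8 in anti-PD-1 asGM1-negative, 964 ± 83.9 in isotype asGM1-positive and 771 ± 103 in isotype asGM1-negative cells (SD, n = 3 each). Ctla4 and Havcr2 followed under anti-PD-1, at 391 ± 44.8 and 385 ± 21.3 CPM per kb in asGM1-positive cells, a gap smaller than their spread, and at 467 ± 34.1 and 348 ± 52.6 CPM per kb in asGM1-negative cells. In isotype asGM1-positive cells the same 2 genes were at 158 ± 62.8 and 207 ± 10.9 CPM per kb, again within the spread of Ctla4. Tigit came next, at 129 ± 6.82 CPM per kb in anti-PD-1 and 89.1 ± 15.9 in isotype asGM1-positive cells, and then Cd160, at 74.6 ± 13.6 in anti-PD-1 and 35.5 ± 5.35 in isotype asGM1-positive cells. Lag3, at 32.7 ± 3.28 CPM per kb in anti-PD-1 and 25.3 ± 2.85 in isotype asGM1-positive cells, overlapped with Cd274 in both groups, which was at 27.0 ± 4.06 under anti-PD-1 and 25.3 ± 1.60 under isotype. Cd200r1 (16.6 ± 1.58 CPM per kb) stood above Cd101 (8.85 ± 1.52) in anti-PD-1 asGM1-positive cells, and the 2 overlapped in isotype asGM1-positive cells (15.7 ± 3.59 for Cd200r1 and 19.4 ± 3.51 for Cd101). Ceacam1 was lowest, at 4.67 ± 0.573 CPM per kb in anti-PD-1 and 0.166 ± 0.140 in isotype asGM1-positive cells. The summed level of the 10 genes was 4711 to 4933 CPM in anti-PD-1 and 3064 to 3517 CPM in isotype asGM1-positive libraries, and 4708 to 5237 CPM in anti-PD-1 and 2549 to 3108 CPM in isotype asGM1-negative libraries. The treatments did not overlap in either population. Pdcd1 made up 47.0 to 47.9% of that sum in anti-PD-1 and 57.2 to 58.2% in isotype asGM1-positive libraries, and 44.8 to 46.4% in anti-PD-1 and 49.4 to 52.6% in isotype asGM1-negative libraries.

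**Figure D1:**
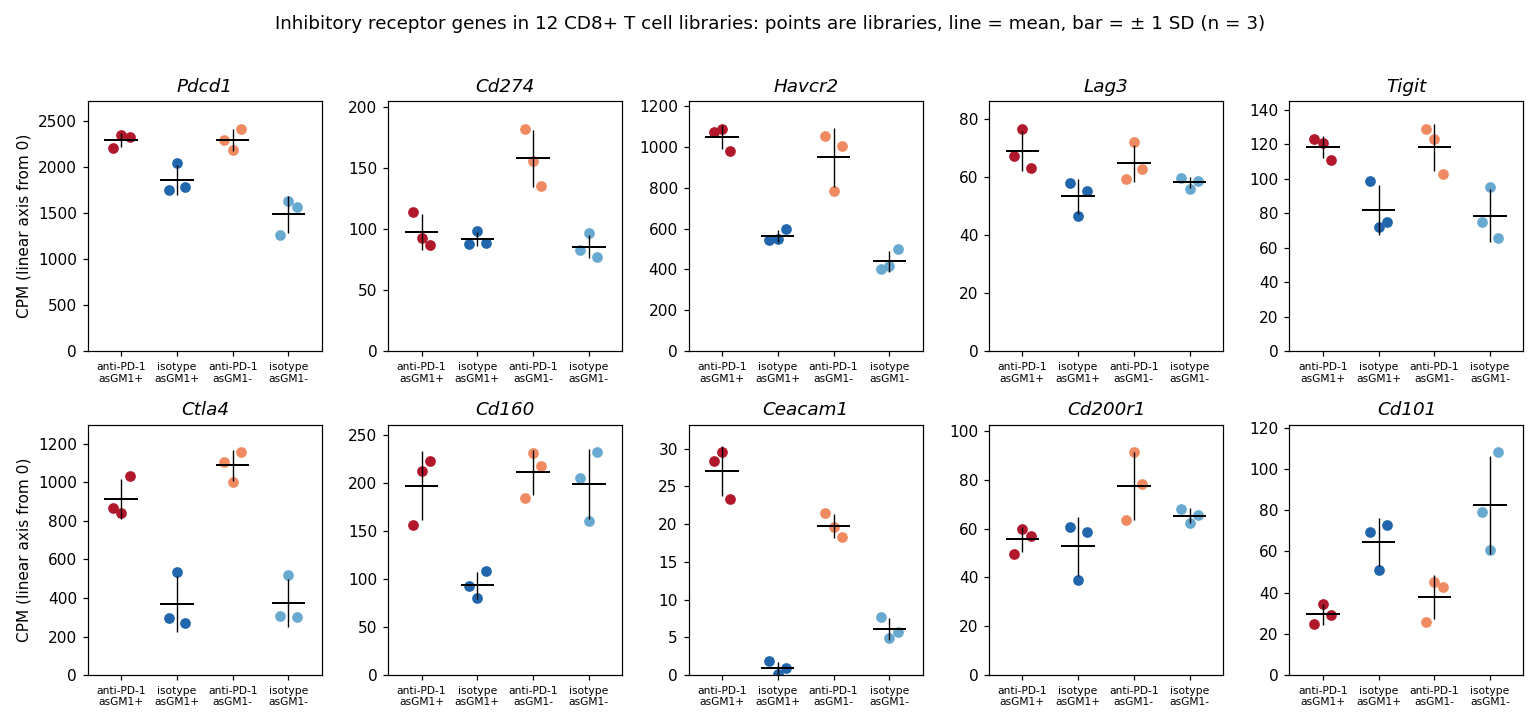
CPM of each of the 10 genes in each library (points), with the mean (line) and 1 SD to either side (bar) of 3 libraries per group, on linear axes from 0. Havcr2, Ctla4 and Ceacam1 lie higher under anti-PD-1 in both populations without overlap, Cd101 lies lower, and Cd160 and Ceacam1 are lowest in isotype asGM1-positive libraries.

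The first question of the design was how PD-1 inhibition changed RNA in each population. In asGM1-positive cells, Havcr2, Ctla4, Cd160 and Ceacam1 rose under anti-PD-1 and Cd101 fell, at an adjusted p under 0.05 over all 18657 genes. These 5 of 10 stand beside 6.73% of all genes called in this comparison. In asGM1-negative cells, Pdcd1, Cd274, Havcr2, Tigit and Ctla4 rose and Cd101 fell, 6 of 10 beside 8.57% of all genes. The median log2 change of the 10 genes was 0.45 in asGM1-positive cells, against -0.01 over all genes, and 0.61 against -0.01 in asGM1-negative cells. Averaged over the populations, 9 of 10 were called beside 18.1% of all genes, 8 higher and Cd101 lower. Libraries of both populations with the same replicate number and treatment deviated together, so the 6 libraries a treatment in the averaged comparison are not independent and its p-values are too small. With the counts of each pair summed, an alternative added after the data were seen, 7 of 10 were called beside 6.72% of all genes, and Lag3 and Cd160 were not (edgeR adjusted p = 0.157 and 0.136).

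The second question was what separated asGM1-positive from asGM1-negative cells. Under anti-PD-1, 1 of 10 was called, Cd274, lower in asGM1-positive cells, beside 1.58% of all genes. Under isotype, Cd160 and Ceacam1 were lower in asGM1-positive cells, 2 of 10 beside 1.31% of all genes. Averaged over treatments, Cd160 was called, beside 3.59% of all genes, and with the pair as a block 5 of 10 were, beside 8.6% of all genes. On this average the 5 were lower in asGM1-positive cells: Cd160, Cd274, Ceacam1, Cd200r1 and Cd101. Cd274 was nevertheless higher there in every isotype pair (ratios 1.06, 1.02 and 1.14), and Ceacam1 in every anti-PD-1 pair (1.32, 1.5 and 1.27). In the blocked fit without anti-PD-1 pair 2, Cd160 and Cd274 were still called (edgeR adjusted p = 0.00325 and 0.025). Ceacam1 (0.0509), Cd200r1 (0.0581) and Cd101 (0.114) were not. The median log2 difference of the 10 genes was -0.05 under anti-PD-1, against -0.01 over all genes, and -0.08 against 0.00 under isotype. Comparisons that share a group, such as the 2 that use anti-PD-1 asGM1-positive libraries, are not independent of each other.

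**Figure D2:**
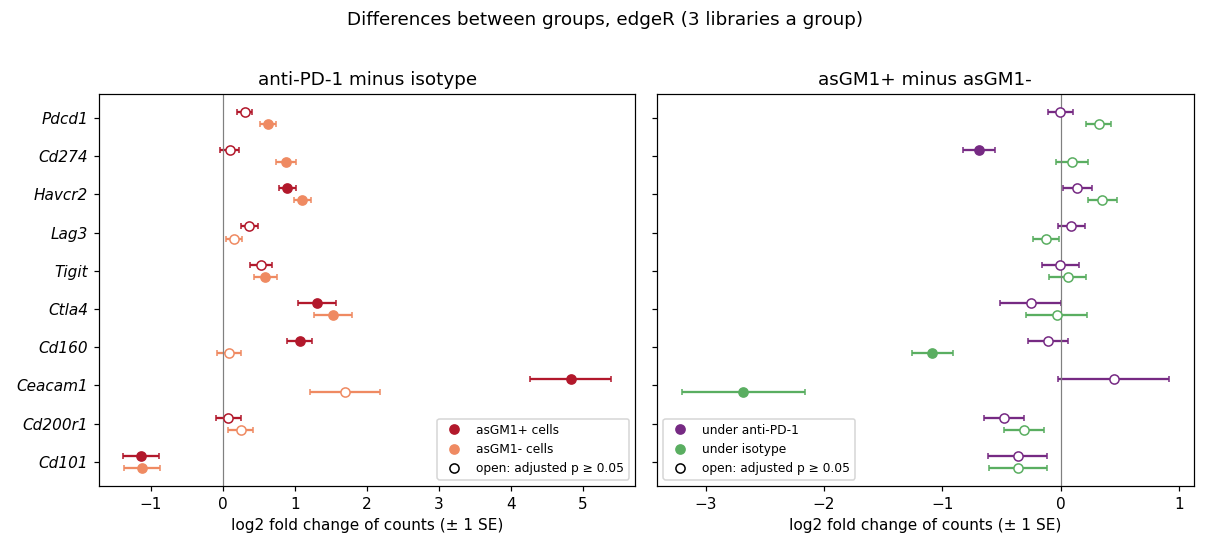
Log2 fold change of counts (horizontal axis, with 1 SE to either side, edgeR) for each of the 10 genes (vertical axis), the treatment change (anti-PD-1 minus isotype) by population on the left and the population difference (asGM1-positive minus asGM1-negative) by treatment on the right, 3 libraries a group. Filled points passed an adjusted p of 0.05: 5 and 6 of 10 for treatment in asGM1-positive and asGM1-negative cells, and 1 and 2 of 10 for population under anti-PD-1 and isotype.

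Pdcd1 encodes PD-1 itself, the target of the antibody. In asGM1-negative cells it was at 2295, 2185 and 2419.6 CPM under anti-PD-1, against 1260.2, 1633 and 1569 CPM under isotype. The groups did not overlap, and Pdcd1 rose (log2 fold change 0.63 ± 0.11 SE, edgeR adjusted p = 0.00468). In asGM1-positive cells it was at 2212, 2347 and 2328 CPM under anti-PD-1, against 1753, 2047 and 1783 CPM under isotype. All 3 anti-PD-1 libraries lay above all 3 isotype libraries there too, and the change did not pass (0.30 ± 0.11, adjusted p = 0.122). Between the populations under anti-PD-1 the same libraries overlapped (-0.00 ± 0.11, adjusted p = 0.998). Under isotype each asGM1-positive library was above the asGM1-negative library of its number, at 1.39, 1.25 and 1.14 times its CPM (0.32 ± 0.11, adjusted p = 0.216). With the pair as a block this passed (0.33 ± 0.07, adjusted p = 0.0355). The difference between the 2 treatment changes was -0.33 ± 0.15 on the log2 scale (adjusted p = 0.708), so a weaker response of Pdcd1 in asGM1-positive cells is not shown.

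Cd274 encodes PD-L1, the ligand of PD-1, which T cells also make when activated. Under anti-PD-1 it was at 114, 92.4 and 86.6 CPM in asGM1-positive libraries, against 182, 156 and 135 CPM in asGM1-negative libraries. Isotype values were 88.1, 98.3 and 88.4 CPM in asGM1-positive and 83.2, 96.5 and 77.4 CPM in asGM1-negative libraries. The anti-PD-1 asGM1-negative libraries thus stood above the other 9. Cd274 rose in asGM1-negative cells (0.88 ± 0.14, edgeR adjusted p = 0.0029) and did not pass in asGM1-positive cells (0.10 ± 0.14, adjusted p = 0.773). Under anti-PD-1 it was lower in asGM1-positive than in asGM1-negative cells (-0.69 ± 0.14, adjusted p = 0.0309), at 0.630, 0.592 and 0.642 times the CPM of the library with the same number. That call ended when library 1 (adjusted p = 0.112) or 2 (0.118) of the asGM1-negative group, library 2 (0.116) or 3 (0.134) of the asGM1-positive group or the whole pair 2 (0.286) was left out. It also ended with no filter on low counts (0.0531) and in the fit of the 6 anti-PD-1 libraries alone (0.0556). It held with the pair as a block. Under isotype the 3 ratios were 1.06, 1.02 and 1.14 (0.10 ± 0.14, adjusted p = 0.861).

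Havcr2 encodes TIM-3, a receptor of effector and exhausted T cells, and it had the smallest p of the 10 genes in asGM1-negative cells. Its levels in asGM1-negative libraries were 1054, 785 and 1004 CPM under anti-PD-1 and 403, 419 and 499 CPM under isotype. In asGM1-positive libraries they were 1070.3, 1088 and 980.1 CPM under anti-PD-1 and 544, 547 and 597 CPM under isotype. No anti-PD-1 library overlapped any isotype library. Havcr2 rose by 1.11 ± 0.12 on the log2 scale in asGM1-negative cells (edgeR adjusted p = 0.000555) and by 0.90 ± 0.12 in asGM1-positive cells (adjusted p = 0.0012), and both calls held when any 1 library was left out. Under isotype, asGM1-positive libraries were at 1.35, 1.31 and 1.20 times the CPM of their asGM1-negative partners. With all 12 libraries the difference did not pass without or with the pair as a block (0.35 ± 0.12, adjusted p = 0.229, and 0.0895 with the block). It passed only in the blocked fit without anti-PD-1 pair 2, which was added after the data were seen (0.35 ± 0.06, adjusted p = 0.0262). Under anti-PD-1 the populations overlapped (0.14 ± 0.12, adjusted p = 0.783), and the difference had the other sign without pair 2 (-0.02).

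Ceacam1, an adhesion receptor with inhibitory motifs in its cytoplasmic tail that has been described as a partner of TIM-3, changed most in size. Its raw counts in asGM1-positive libraries were 1977, 1690 and 1618 under anti-PD-1 and 105, 13 and 59 under isotype. Scaled, these were 28.4, 29.5 and 23.3 CPM against 1.81, 0.180 and 0.901 CPM. The lowest anti-PD-1 library was thus far above the highest isotype library (4.83 ± 0.56, edgeR adjusted p = 0.000439). The change was 5.66 without library 1 of the isotype asGM1-positive group and 4.33 without library 2, the one with 13 counts, and it passed in both fits. In asGM1-negative libraries Ceacam1 was at 21.5, 19.6 and 18.3 CPM under anti-PD-1 and 7.74, 4.89 and 5.73 CPM under isotype. These groups did not overlap either, and the change missed the threshold in the fit of all 12 libraries (1.70 ± 0.48, adjusted p = 0.0508). In the fit of only the 6 asGM1-negative libraries it passed (1.70 ± 0.20, adjusted p = 0.00373), as it did in the fit of 11 libraries without library 1 (0.0192) or 2 (0.00279) of the isotype asGM1-positive group.

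Between the populations, Ceacam1 was lower in asGM1-positive cells under isotype (-2.68 ± 0.52, edgeR adjusted p = 0.0322), at 0.233, 0.0369 and 0.157 times the CPM of the asGM1-negative partners. The call ended when library 1 (adjusted p = 0.110), 2 (0.0577) or 3 (0.0687) of the isotype asGM1-negative group, library 3 (0.102) of the isotype asGM1-positive group, library 3 (0.0539) of the anti-PD-1 asGM1-negative group or anti-PD-1 pair 2 (0.0758) was left out. The difference was -3.51 without library 1 of the isotype asGM1-positive group and -2.19 without library 2. The call also ended in the fit of the 6 isotype libraries alone (0.193), and it held with the pair as a block (-2.93 ± 0.38, adjusted p = 0.00814). Under anti-PD-1 the 3 ratios were 1.32, 1.5 and 1.27, and no asGM1-positive library overlapped an asGM1-negative one (0.45 ± 0.47, adjusted p = 0.858). Ceacam2, a close paralog, averaged 2.86 ± 0.287 CPM in anti-PD-1 and 0.130 ± 0.107 CPM in isotype asGM1-positive cells, and 1.78 ± 0.120 CPM in anti-PD-1 and 0.732 ± 0.299 CPM in isotype asGM1-negative cells (SD, n = 3 each). It followed Ceacam1 in order, and how reads shared by the 2 genes were counted was not given in the sources used here.

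Ctla4 encodes the receptor that competes with CD28 for CD80 and CD86. In asGM1-positive libraries it was at 865, 839 and 1031 CPM under anti-PD-1 and 298, 536 and 269 CPM under isotype. In asGM1-negative libraries it was at 1108, 999.9 and 1155 CPM under anti-PD-1 and 307, 519.6 and 299.8 CPM under isotype. Library 2 was highest in both isotype groups and still below every anti-PD-1 library. Ctla4 rose by 1.31 ± 0.26 on the log2 scale (edgeR adjusted p = 0.012) in asGM1-positive cells and by 1.53 ± 0.26 in asGM1-negative cells (adjusted p = 0.00496). The call in asGM1-positive cells ended when library 1 of the isotype asGM1-positive group was left out (0.0506). Regulatory T cells also make Ctla4, and Foxp3 stood lower in asGM1-positive than in asGM1-negative libraries under both treatments, and their part in the values of Ctla4 was not tested. Under anti-PD-1, Ctla4 was at 0.780, 0.839 and 0.893 times the CPM of its asGM1-negative partner in the 3 asGM1-positive libraries, lower in all 3 pairs, and the groups overlapped. Under isotype the ratios were 0.968, 1.03 and 0.897. Neither difference was called.

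Tigit, a receptor for the poliovirus receptor and nectin 2, was at 129, 123 and 103 CPM in anti-PD-1 asGM1-negative libraries, against 74.8, 95.4 and 65.5 CPM in isotype asGM1-negative libraries. In asGM1-positive cells it was at 123, 121 and 111 CPM under anti-PD-1 and 98.7, 72.2 and 74.9 CPM under isotype. The treatments did not overlap in either population, and the populations overlapped under both treatments. Tigit rose in asGM1-negative cells (0.59 ± 0.16, edgeR adjusted p = 0.0361) and did not pass in asGM1-positive cells (0.53 ± 0.16, adjusted p = 0.0642). The first call was lost when library 1 (0.126) or 3 (0.106) of the isotype asGM1-negative group, library 1 (0.130), 2 (0.101) or 3 (0.0512) of the anti-PD-1 asGM1-negative group, library 1 (0.0594) or 2 (0.0534) of the anti-PD-1 asGM1-positive group or anti-PD-1 pair 2 (0.135) was left out. It was also lost with no filter on low counts (0.0701) and in the fit of the 6 asGM1-negative libraries alone (0.0523). In asGM1-positive cells a call was gained when library 1 (0.0323) of the isotype asGM1-positive group or library 2 (0.0432) or 3 (0.050) of the isotype asGM1-negative group was left out. Summed over pairs, Tigit rose by 0.58 ± 0.11 (adjusted p = 0.0233).

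Lag3, a receptor for MHC class II, changed little in size. Its levels in asGM1-positive libraries were 67.3, 76.7 and 63.2 CPM under anti-PD-1 and 58.1, 46.6 and 55.4 CPM under isotype. In asGM1-negative libraries they were 59.5, 72.0 and 62.9 CPM under anti-PD-1 and 59.7, 56.1 and 58.8 CPM under isotype. The treatments were apart in asGM1-positive cells (0.37 ± 0.11; adjusted p = 0.0746, edgeR) and overlapped in asGM1-negative cells (0.16 ± 0.11, adjusted p = 0.46). The averaged change passed (0.26 ± 0.08, adjusted p = 0.0391). That call was lost in 8 of the 12 fits that left out 1 library (adjusted p from 0.0576 to 0.100 in these 8) without anti-PD-1 pair 2 (0.190) and with no filter on low counts (0.0643). Those 8 fits left out any library of the isotype asGM1-negative group, library 2 of the isotype asGM1-positive group, library 2 or 3 of the anti-PD-1 asGM1-negative group, or library 1 or 2 of the anti-PD-1 asGM1-positive group.

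Cd160 encodes a receptor, anchored in the membrane by a lipid, that binds the herpesvirus entry mediator HVEM. It was at 156, 213 and 223 CPM in anti-PD-1 asGM1-positive, 185, 231 and 218 CPM in anti-PD-1 asGM1-negative, 92.9, 80.2 and 108 CPM in isotype asGM1-positive and 205, 160.1 and 232 CPM in isotype asGM1-negative libraries. Isotype asGM1-positive libraries stood below all 9 others, which overlapped. Cd160 rose under anti-PD-1 in asGM1-positive cells (1.07 ± 0.17; adjusted p = 0.00353, edgeR), and in asGM1-negative cells it did not pass (0.09 ± 0.17, adjusted p = 0.818). Under isotype it was lower in asGM1-positive than in asGM1-negative cells (-1.08 ± 0.17, adjusted p = 0.0125), at 0.452, 0.501 and 0.468 times the CPM of the partner libraries. This call was lost without library 1 of the asGM1-negative group (0.0533). Under anti-PD-1 the ratios were 0.842, 0.920 and 1.02 (-0.10 ± 0.17, adjusted p = 0.934). The averaged population difference passed (-0.59 ± 0.12, adjusted p = 0.019) and was lost when library 1 of the isotype asGM1-negative group (0.0539), library 2 of the anti-PD-1 asGM1-negative group (0.0520) or anti-PD-1 pair 2 (0.0843) was left out. NK cells also make Cd160, and their part in its values was not tested. The summed level of 5 NK cell markers was highest where Cd160 was lowest, at 111 to 233 CPM in anti-PD-1 asGM1-positive, 122 to 198 CPM in anti-PD-1 asGM1-negative, 339 to 458 CPM in isotype asGM1-positive and 164 to 239 CPM in isotype asGM1-negative libraries. Ncr1, given above, was a small part of that sum.

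**Figure D3:**
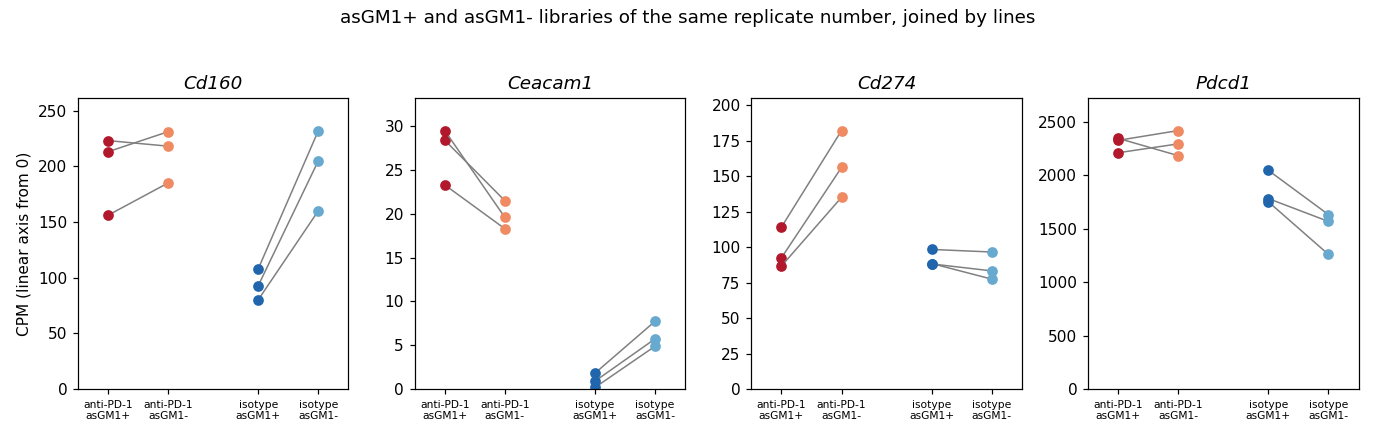
CPM (vertical axes, linear from 0) of Cd160, Ceacam1, Cd274 and Pdcd1 in each library, with a line joining the asGM1-positive and asGM1-negative libraries of the same replicate number under each treatment. Cd160 is lower in asGM1-positive libraries in all 3 isotype pairs (ratios 0.452 to 0.501), Ceacam1 is lower in the 3 isotype pairs and higher in the 3 anti-PD-1 pairs, and Cd274 is lower in the 3 anti-PD-1 pairs.

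Whether the treatment change differed between the populations was tested as an interaction. None of the 10 genes and none of 18657 genes passed with edgeR (0% called; 1329 genes at an unadjusted p under 0.05), nor with limma voom, whereas DESeq2 called 136 genes (0.731%). With pairs blocked, edgeR called 5 genes (0.0268%), of which Cd160 was 1 (0.96 ± 0.10, adjusted p = 0.0387). This call was lost when anti-PD-1 pair 2 was left out of the blocked fit (0.97 ± 0.12, adjusted p = 0.122). Without the block its interaction was 0.98 ± 0.24 (adjusted p = 0.438). Those of Ceacam1 (3.13 ± 0.70) and Cd274 (-0.78 ± 0.19) had the same adjusted p without the block (0.438) and did not pass with it (0.0637 and 0.0527). With DESeq2, Ceacam1, Cd160 and Cd274 passed (adjusted p = 0.00273, 0.0269 and 0.0359).

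Cd200r1, the receptor for CD200 best known from myeloid cells, was at 49.7, 59.9 and 57.1 CPM in anti-PD-1 asGM1-positive, 63.4, 91.2 and 78.2 CPM in anti-PD-1 asGM1-negative, 60.6, 38.8 and 58.7 CPM in isotype asGM1-positive and 68.2, 62.3 and 65.6 CPM in isotype asGM1-negative libraries. Every asGM1-positive library was below every asGM1-negative library of its treatment. The difference did not pass under anti-PD-1 (-0.48 ± 0.17, edgeR adjusted p = 0.258) or under isotype (-0.31 ± 0.17, adjusted p = 0.501). Averaged over treatments it passed with the pair as a block (-0.40 ± 0.08, adjusted p = 0.0196) and not without it (adjusted p = 0.107). The blocked call was lost when anti-PD-1 pair 2 was left out (0.0581). Macrophage markers, listed above, stood higher in the asGM1-positive libraries, where Cd200r1 was lower. Plasmacytoid dendritic cell markers were lower there. So was the summed level of 5 conventional dendritic cell markers. Under anti-PD-1 it was 2.69 to 4.43 CPM in asGM1-positive and 10.9 to 20.7 CPM in asGM1-negative libraries. Under isotype it was 3.72 to 5.22 CPM and 15.6 to 19.2 CPM. The part of these cells in the values of Cd200r1 was not tested. Between treatments, Cd200r1 alone among the 10 genes was not called in the averaged comparison of single libraries (0.16 ± 0.12, adjusted p = 0.396). With the counts of each pair summed, Lag3 and Cd160 were not called either (edgeR adjusted p = 0.157 and 0.136). Cd200r4, a paralog of Cd200r1, averaged 54.1 ± 8.40 CPM in anti-PD-1 and 42.3 ± 4.62 CPM in isotype asGM1-positive cells.

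Cd101, an immunoglobulin superfamily protein found on terminally exhausted CD8+ T cells of mice, was alone among the 10 genes in being called lower under anti-PD-1. It was at 24.7, 34.7 and 29.0 CPM under anti-PD-1 and 69.4, 51.1 and 72.9 CPM under isotype in asGM1-positive libraries. In asGM1-negative libraries it was at 25.8, 45.0 and 42.9 CPM under anti-PD-1 and 79.3, 60.6 and 108 CPM under isotype. No anti-PD-1 library reached the lowest isotype library. Cd101 fell in asGM1-positive cells (-1.13 ± 0.25; adjusted p = 0.0202, edgeR) and in asGM1-negative cells (-1.13 ± 0.25, adjusted p = 0.0177). The first call was lost when library 1 (0.0898) or 3 (0.0544) of the anti-PD-1 group or library 1 (0.0599) or 3 (0.0553) of the isotype group was left out. The second was lost without library 1 (0.0656) of the anti-PD-1 group or library 3 (0.0605) of the isotype group. Summed over pairs the fall passed (-1.13 ± 0.22, adjusted p = 0.027). Between the populations the groups overlapped under both treatments (-0.36 ± 0.25 under each, adjusted p = 0.701 under anti-PD-1 and 0.62 under isotype). Averaged over treatments the difference did not pass without the block (-0.36 ± 0.17, adjusted p = 0.34) and passed with the pair as a block (-0.34 ± 0.08, adjusted p = 0.0419). The blocked call was lost without anti-PD-1 pair 2 (0.114).

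Among the ligands of these receptors, 10 of 12 listed genes were tested. Under anti-PD-1, 0 rose and 1 fell in asGM1-positive cells, beside the 6.73% of all genes called, and 2 rose and 0 fell in asGM1-negative cells, beside 8.57%. The list includes Cd274, already described above, which was 1 of these 2. With Cd274 set aside, the counts are near those shares, so they are no result about the list. Pvr, the poliovirus receptor bound by TIGIT, averaged 22.4 ± 1.60 CPM in anti-PD-1 and 32.1 ± 2.11 CPM in isotype asGM1-positive cells (SD, n = 3 each; -0.52 ± 0.13, edgeR adjusted p = 0.0315). The call of Pvr ended in each of the 6 fits that left out 1 of these libraries (adjusted p from 0.0541 to 0.140), in the fit of these 6 alone (0.0630) and without anti-PD-1 pair 2 (0.114). Cd80, a shared ligand of CD28 and CTLA-4, rose in asGM1-negative cells with Cd274, to 25.5 ± 4.02 CPM under anti-PD-1, against 16.1 ± 0.916 CPM under isotype (0.67 ± 0.16, adjusted p = 0.0262). That call was lost when library 1 (0.114) or 3 (0.0757) of the anti-PD-1 group or library 1 (0.0980), 2 (0.0553) or 3 (0.0685) of the isotype group was left out, and with no filter on low counts (0.0501).

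Of 14 further inhibitory receptors, 5 rose and 1 fell under anti-PD-1 in asGM1-positive cells, beside 6.73% of all genes, and 4 rose and 2 fell in asGM1-negative cells, beside 8.57%. Vsir, which encodes VISTA, averaged 394 ± 61 CPM in anti-PD-1 and 229 ± 20 CPM in isotype asGM1-positive cells (0.78 ± 0.11, edgeR adjusted p = 0.00166), and 395 ± 23.0 CPM in anti-PD-1 and 215 ± 4.62 CPM in isotype asGM1-negative cells (0.88 ± 0.11, adjusted p = 0.00102). Cd244a, the receptor 2B4 of NK and CD8+ T cells, went the other way. It averaged 131 ± 3.21 CPM in anti-PD-1 and 387 ± 49.5 CPM in isotype asGM1-positive cells (-1.57 ± 0.13, adjusted p = 4.7e-05), and 111 ± 7.20 CPM in anti-PD-1 and 208 ± 36.3 CPM in isotype asGM1-negative cells (-0.91 ± 0.13, adjusted p = 0.00165). The summed level of NK cell markers, given beside Cd160, was also highest in isotype asGM1-positive libraries. The part of NK cells in the values of Cd244a was not tested. Lair1, a receptor for collagen, averaged 8.92 ± 0.550 CPM in asGM1-positive and 26.2 ± 4.29 CPM in asGM1-negative cells under isotype (-1.55 ± 0.18, adjusted p = 0.00291). Under anti-PD-1 it was also called lower in asGM1-positive cells (-0.79 ± 0.18, adjusted p = 0.0481), a call lost in all 12 fits that left out 1 library (adjusted p from 0.0502 to 0.195) with the pair as a block (0.0544), with limma voom (0.0622), with no filter (0.0683), without anti-PD-1 pair 2 (0.463) and in the fit of the 6 anti-PD-1 libraries alone (0.0775). Other leukocytes make Lair1 too. In the same libraries plasmacytoid dendritic cell markers were lower and macrophage and monocyte markers were higher. The part of these cells in the values of Lair1 was not tested.

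Of 9 costimulatory receptors, 4 rose under anti-PD-1, 0 fell and 5 did not pass in asGM1-positive cells, beside 6.73% of all genes. In asGM1-negative cells 3 rose, 0 fell and 6 did not pass, beside 8.57%. Icos averaged 867 ± 116 CPM in anti-PD-1 and 272 ± 56.9 CPM in isotype asGM1-positive cells (1.67 ± 0.16, edgeR adjusted p = 0.000137), and 938 ± 13.4 CPM in anti-PD-1 and 344 ± 60.8 CPM in isotype asGM1-negative cells (1.45 ± 0.16, adjusted p = 0.00058). Cd28, the main costimulatory receptor of T cells and a target of PD-1 signalling, rose by 1.12 ± 0.12 in asGM1-positive cells (adjusted p = 0.000232) and by 0.87 ± 0.12 in asGM1-negative cells (adjusted p = 0.00152). Tnfrsf4 (OX40) was lower in asGM1-positive than in asGM1-negative cells under isotype, at 126 ± 26.4 against 286 ± 57.9 CPM (-1.18 ± 0.21, adjusted p = 0.0217). Its call was lost when library 2 (0.0790) or 3 (0.0850) of the asGM1-positive group or library 1 (0.0955) or 2 (0.0541) of the asGM1-negative group was left out, and in the fit of the 6 isotype libraries alone (0.0595). Regulatory T cells make Tnfrsf4 too, and Foxp3 was lower in the same libraries. The part of these cells in the values of Tnfrsf4 was not tested.

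In the list of signalling and turnover genes, 1 of 14 fell and 0 rose in asGM1-positive cells and 2 fell and 0 rose in asGM1-negative cells under anti-PD-1. These shares are near the 6.73% and 8.57% of all genes called, so they are no result about the list. Ptpn6 encodes SHP-1, a phosphatase that inhibitory receptors recruit. It averaged 754 ± 119 CPM in anti-PD-1 and 2143 ± 135 CPM in isotype asGM1-positive cells (-1.51 ± 0.13, edgeR adjusted p = 7.3e-05), and 712 ± 88.8 CPM in anti-PD-1 and 1480 ± 159 CPM in isotype asGM1-negative cells (-1.06 ± 0.13, adjusted p = 0.000983). Csk, a kinase that restrains T cell receptor signalling, fell in asGM1-negative cells to 65.3 ± 9.96 CPM under anti-PD-1, against 110.3 ± 12.3 CPM under isotype (-0.76 ± 0.18, adjusted p = 0.0229). The Csk call was lost when library 1 (0.0999) or 3 (0.0540) of the anti-PD-1 group, library 1 (0.0926) or 2 (0.0583) of the isotype group or anti-PD-1 pair 2 (0.0665) was left out.

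Of 15 transcription regulators linked to these receptors, 6 rose and 0 fell in asGM1-positive cells and 3 rose and 0 fell in asGM1-negative cells under anti-PD-1, beside 6.73% and 8.57% of all genes. Nr4a2, an orphan nuclear receptor of T cells with repeated antigen contact, rose by 1.25 ± 0.16 (edgeR adjusted p = 0.000808) in asGM1-positive cells and by 0.92 ± 0.16 in asGM1-negative cells (adjusted p = 0.00495). Prdm1, which encodes the repressor Blimp-1, rose by 1.04 ± 0.19 in asGM1-positive cells (adjusted p = 0.00809) and by 0.93 ± 0.19 in asGM1-negative cells (adjusted p = 0.0123). In asGM1-negative cells the Prdm1 call was lost without library 1 of the anti-PD-1 group (0.0542) or library 1 of the isotype group (0.0521). Tcf7, the TCF1 gene of naive and stem-like T cells, separated the populations. It averaged 7.52 ± 4.85 CPM in asGM1-positive and 73.1 ± 15.1 CPM in asGM1-negative cells under anti-PD-1 (-3.28 ± 0.49, adjusted p = 0.010, and -3.91 without library 2 of the asGM1-positive group), and under isotype 10.5 ± 5.07 CPM in asGM1-positive and 69.9 ± 21.7 CPM in asGM1-negative cells (-2.74 ± 0.48, adjusted p = 0.0176). Under isotype that call was lost when library 1 (0.0639) or 2 (0.0526) of the asGM1-positive group or library 1 (0.0623) or 3 (0.0622) of the asGM1-negative group was left out. Among the population comparisons of these 5 lists, the calls were Cd274, Lair1 and Tcf7, all lower in asGM1-positive cells, under anti-PD-1, and Cd244a higher and Lair1, Btla, Tnfrsf4 and Tcf7 lower under isotype, beside 1.58% and 1.31% of all genes.

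**Figure D4:**
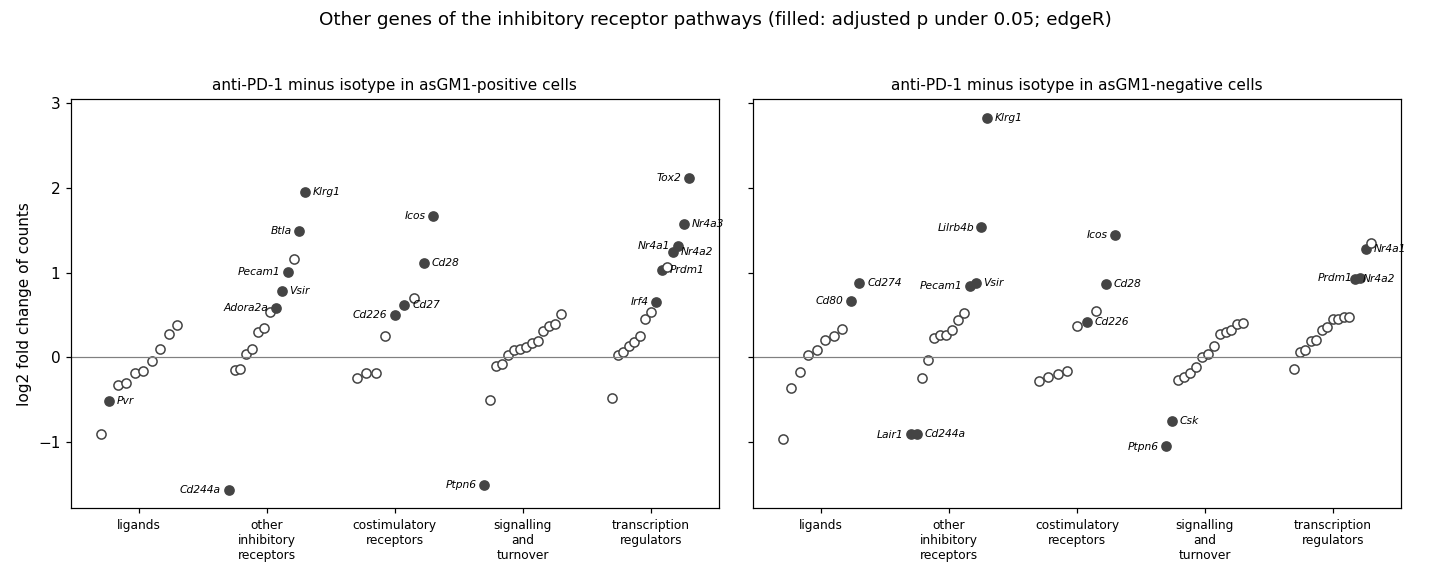
Log2 fold change of counts (vertical axis), anti-PD-1 minus isotype, of the tested genes of 5 lists (horizontal axis, sorted by value within a list) in asGM1-positive cells (left) and asGM1-negative cells (right), edgeR, 3 libraries a group. Filled and named points passed an adjusted p of 0.05. Icos, Cd28 and Vsir lie above 0 and Ptpn6 and Cd244a below 0 in both populations.

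Over the 12 libraries, the genes whose log2 CPM followed that of Pdcd1 most closely among 8782 genes averaging at least 3 on the log2 CPM scale were Vps37b (Pearson r = 0.963), Isca1 (0.947), Mtfr1l (0.937), Adam8 (0.937) and Arrdc3 (0.934). For Havcr2 they were Rgs16 (0.982), Sytl2 (0.978), Ptpn22 (0.975), Gpr160 (0.975) and Ttc5 (0.972). Havcr2 followed Pdcd1 with r = 0.910, Ctla4 followed Pdcd1 with 0.854, and Cd101 ran opposite to both Pdcd1 (-0.821) and Ctla4 (-0.872). Cd160 followed Ceacam1 (0.850) rather than Pdcd1 (0.131). These values describe 12 libraries that fall into 4 groups and share their treatments, so they carry no p.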

How the data were processed

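Whole-number gene counts of the 12 libraries were deposited by the authors as 1 table, a column per library. The labels' protocols name TRIzol extraction, an Illumina TruSeq mRNA kit and SMARTer ultra-low-input library preparation. The submitters' processing notes name HISAT2, StringTie and mm39; versions, settings, annotation, use of strand and treatment of reads with several matches are not given in the sources used here, which leaves values of paralogs and of overlapping or antisense genes uncertain. No gene coordinates are printed on mm39.

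Counts of all 12 libraries were fitted together with edgeR 4.0.16 (limma 3.58.1, R 4.3.3), with a mean per group, the default expression filter by group (18657 of 56941 genes left), TMM scaling and the quasi-likelihood F test (8 residual degrees of freedom, median prior 3.71, biological coefficient of variation 0.336). Pooling the groups shares 1 estimate of the spread. P-values were adjusted by Benjamini-Hochberg over all genes tested, and genes were called at an adjusted p under 0.05. The SE of a log2 fold change was taken as its size over the square root of F. CPM values are given as mean ± SD over 3 libraries. The procedure was tested on simulated libraries for the treatment change in asGM1-negative cells only. These were drawn independently, without a shared deviation of pairs, so the test says nothing of the averaged, population or interaction comparisons. Within groups, chi-square over degrees of freedom was 49.1 to 90.7, well above sampling noise, so no group was 3 copies of 1 library. The value is taken over the 3 libraries together and does not show this for each library. All 12 were treated as separate.

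Same-numbered libraries of both populations within a treatment deviated together from their group means (r from 0.258 to 0.724 over 6 pairs; -0.54 to 0.22 for 12 pairs of different numbers), so the number pairs the populations, as a hint from the data. Across treatments it did not (-0.408 to 0.19 over 6 pairs). Alternatives were DESeq2 1.42.0 and its size factors, limma voom, no filter, only the compared libraries, replicate blocks, leaving out each library, and leaving out anti-PD-1 pair 2; pair sums, and that last omission with the block, were added after the data were seen.

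Members, lists, alternatives and naming rules were chosen with earlier results of these data known. All 10 members are named, with up to 3 genes per pathway list by smallest p, and 5 genes each for likeness to Pdcd1 and Havcr2. Btla was named after its values were seen. Promoters are from RefSeq (GRCm38.p6), lengths from GENCODE M21.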

Additional observations from a re-analysis of the deposited data

Results flagged for a closer look

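Cd274, Lag3 and Ceacam1 had opposite signs of the population difference in the 2 treatments, in every pair of libraries. The difference of log2 changes was -0.784 ± 0.192 for Cd274 (edgeR adjusted p = 0.438; adjusted p = 0.0527 with the replicate pair as a block), 3.134 ± 0.696 for Ceacam1 (adjusted p = 0.438; 0.0637 with the block) and 0.215 ± 0.159 for Lag3 (adjusted p = 0.879; 0.475 with the block). For Lag3 the asGM1-positive library was at 1.13, 1.07 and 1 times the CPM of its asGM1-negative partner under anti-PD-1 (the last being 63.2 against 62.9 CPM) and at 0.974, 0.832 and 0.943 times under isotype. Cd160 showed a difference of 0.982 ± 0.242 (adjusted p = 0.438), which passed with the block (adjusted p = 0.0387) and not in the blocked fit without anti-PD-1 pair 2 (0.122), and its ratios were below 1 in all 3 isotype pairs. None of the 4 passed in the edgeR fit without the block. With DESeq2, also without the block, Ceacam1 (adjusted p = 0.00273), Cd160 (0.0269) and Cd274 (0.0359) passed.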

How the results depend on the processing

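Between the populations under anti-PD-1 (1 member, 295 genes called), the member was lost with no filter (0), with only the 6 libraries compared (0) and without anti-PD-1 pair 2 (0; 16 genes); genes called were 853 with DESeq2 and 891 with the replicate block. Under isotype (2 members, 244 genes), members were 1 with only the 6 libraries compared (93 genes), 1 without anti-PD-1 pair 2, and 4 with that omission and the block (725 genes); genes were 798 with DESeq2 and 736 with the block. Averaged over treatments (1 member, 670 genes), members were 3 with DESeq2 (1419 genes), 2 with limma voom, 5 with the replicate block (1604 genes), 0 without anti-PD-1 pair 2 (280 genes) and 2 with that omission and the block. For the treatment, DESeq2 called 8 members and 2264 genes in asGM1-positive cells and 2756 genes in asGM1-negative cells; only the 6 libraries compared gave 677 genes in asGM1-positive cells; without anti-PD-1 pair 2 the genes were 604 in asGM1-positive cells, 791 in asGM1-negative cells and 2108 averaged; summed pairs gave 1294. For the interaction, DESeq2 called 3 members and 136 genes, and the replicate block 1 and 5; Cd160, that member, was lost with the block and without pair 2 (0.122). Cd244a, called higher in asGM1-positive cells under isotype, was lost with only those 6 libraries (0.0706).

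Leaving out 1 library at a time gave 0 to 1 members and 49 to 354 genes (population under anti-PD-1), 0 to 2 and 75 to 230 (under isotype), 0 to 2 and 407 to 781 (averaged), 4 to 6 and 674 to 1252 (treatment in asGM1-positive cells), 4 to 7 and 730 to 1737 (in asGM1-negative cells), 8 to 9 and 2428 to 3451 (averaged), and 0 to 0 for the interaction. The cause of these shifts was not tested. Signs turned round only in differences that did not pass. Havcr2 between populations under anti-PD-1 was at -0.016 without pair 2 and -0.018 with the block as well. Its range over all omissions, without or with the block, was -0.018 to 0.226. On the same footing, signs turned for Pdcd1 (-0.065 to 0.042) and Cd160 (-0.199 to 0.058) in that comparison. They also turned for Cd274 for treatment in asGM1-positive cells (-0.027 to 0.176) and Cd160 for treatment in asGM1-negative cells (-0.045 to 0.213). With the replicate number over all groups as a block, which the data did not bear out as pairing treatments, Tigit in asGM1-positive cells (adjusted p = 0.0383) and Ceacam1 in asGM1-negative cells (0.0386) were gained and averaged Lag3 was lost (0.0603). DESeq2 also called Pdcd1 (0.0473), Lag3 (0.0309) and Tigit (0.0196) in asGM1-positive cells and Ceacam1 in asGM1-negative cells (0.00336). DESeq2's size factors changed no member's call.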
